A study of Mus musculus with 77 samples.

Results

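The genes described here are 8 genes used to recognise proprioceptors, the dorsal root ganglion (DRG) neurons that report muscle stretch and limb position: Runx3, Etv1, Pvalb, Whrn, Spp1, Calb2, Esrrb and Nxph1. They were found by their symbols among the 18104 genes that are listed in at least 1 of 6 deposited count tables. All 8 were listed in the tables of naive pull-downs, inputs and supernatants and in the Isl1 injury tables, whereas the Dhh injury table listed only Etv1 and Spp1.

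The study used RiboTag mice, in which Cre recombinase adds an HA tag to Rpl22, a protein of the large ribosomal subunit. An HA antibody then isolates ribosomes, with the RNAs on them, from the cells that made Cre. The mice were males 8 to 12 weeks old. In every group they carried the Cre heterozygous, with the Rpl22-HA allele homozygous, except in the Adv line, where that allele was heterozygous too. The drivers were Runx3-Cre for proprioceptive neurons (ICR strain), Isl1-Cre for sensory neurons (ICR), Adv-Cre for sensory neurons (C57BL/6), PGK-Cre for all cells (C57BL/6) and Dhh-Cre for glia (ICR), so a difference between an ICR line and a C57BL/6 line cannot be told apart from a difference between strains. Naive, that is uninjured, ganglia of each line gave 3 fractions, the whole lysate (input), the HA pull-down (IP) and what the pull-down left behind (supernatant). Pull-downs and inputs of the Isl1 line and pull-downs of the Dhh line were also made 4, 12 and 24 h after sciatic nerve injury and compared with a naive group of their own, without a labelled sham group. There were 3 libraries per group, but only 2 of naive Dhh pull-downs, of Isl1 input at 4, 12 and 24 h and of Dhh pull-downs at 24 h. The labels do not say that the libraries of a group came from separate animals, so the p-values measure the spread between these libraries, which may be technical.

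Across the 76 libraries the total count lay between 29710143 and 54088821, and levels are given as CPM, the count of a gene per 1000000 counts of its library. The lowest levels of the 8 genes were in naive Dhh pull-downs, where Esrrb rested on 19 and 17 counts and Nxph1 on 25 and 17. Within the Runx3, Adv and PGK pull-downs the library numbered 2 had the smallest total and the largest share of Rn45s, the ribosomal RNA precursor (9.13%, 6.6% and 4.9% of counts), against 0.791 to 2.82% in the other naive pull-downs. The driver and tag genes were also read in each line. Of Dhh, Isl1, Avil and Pgk1, only Dhh had its highest group mean among naive pull-downs in its own line. Dhh itself averaged 491 ± 74.4 CPM in Dhh pull-downs (SD, n = 2) and at most 61.9 CPM in any pull-down of another line, and Isl1 averaged 204 ± 9.45 CPM in Runx3 pull-downs, 132 ± 13.1 in Isl1 pull-downs and 7.68 ± 1.78 in Dhh pull-downs. Avil, the gene of the Adv driver, ranged from 97.5 to 352 CPM in Adv pull-downs and from 390 to 917 CPM in Isl1 pull-downs. Pgk1, at 38.4 to 77.3 CPM as group means, and Rpl22, at 80.5 to 178 CPM, were read in every naive pull-down.

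Proprioceptors have large, fast-conducting axons that end on muscle spindles and Golgi tendon organs. Runx3 is a Runt-domain transcription factor that sustains the neurotrophin-3 receptor TrkC and the central projection of these neurons. Etv1 is an ETS-family transcription factor needed for their connections with motor neurons. Esrrb is an orphan nuclear receptor of the oestrogen-related family. Pvalb and Calb2 encode parvalbumin and calretinin, which bind and buffer calcium. Whrn encodes whirlin, a PDZ scaffold protein known from hair-cell stereocilia. Spp1 encodes osteopontin, a secreted phosphoprotein, and Nxph1 encodes neurexophilin 1, a secreted ligand of alpha-neurexins. None of these genes belongs to proprioceptors alone: Runx3 is also a regulator of cytotoxic T and NK cells, and Spp1 is made by macrophages and bone cells.

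In the mm10 annotation (GENCODE M21) Runx3 lies at chr4:135120652-135177990 on the + strand, Etv1 at chr12:38779380-38870484 (+), Esrrb at chr12:86361117-86521628 (+), Pvalb at chr15:78191114-78206400 (−), Calb2 at chr8:110137502-110168210 (−), Whrn at chr4:63414910-63495991 (−), Spp1 at chr5:104435118-104441050 (+) and Nxph1 at chr6:8948431-9249032 (+). Since Runx3 and an ETS factor are themselves among the 8 genes, the bases just upstream of each member were searched for short letters of these factor families. RefSeq (GRCm38.p6) gave 12 windows of 250 bases upstream of RefSeq starts for 7 of the 8 members, with no entry for Calb2. The core letters of RUNX sites, TGTGGT, or ACCACA where they stand on the other strand, were found in 3 windows of 3 members, and in 14% of all 32851 such windows. The ETS letters CCGGAA, or TTCCGG where they stand on the other strand, occurred once upstream of Pvalb, 96 bases before its start, and once upstream of Spp1, 233 bases before it, against 12% of all windows, and the oestrogen-related receptor letters TCAAGGTCA, or TGACCTTGA where they stand on the other strand, in 0 of the 12 windows and in 0.387% of all. The 3 windows that hold RUNX letters are printed because 1 belongs to the RUNX factor itself and the others to members that gave calls after injury (Etv1 and Spp1). Capitals mark the RUNX letters, which begin 134 and 126 bases before the RefSeq start of Runx3 that its window adjoins, 192 before that of Etv1 and 128 before that of Spp1. The RefSeq start used for Etv1 lies downstream of the GENCODE start given above, so its window falls inside the gene as GENCODE draws it.
Runx3 upstream window, chr4:135120395-135120644, + strand: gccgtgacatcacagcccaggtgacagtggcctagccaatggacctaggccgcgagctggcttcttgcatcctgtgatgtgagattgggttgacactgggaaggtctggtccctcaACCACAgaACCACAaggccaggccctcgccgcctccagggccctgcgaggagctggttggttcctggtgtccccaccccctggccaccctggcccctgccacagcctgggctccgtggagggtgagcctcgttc
Etv1 upstream window, chr12:38779832-38780081, + strand: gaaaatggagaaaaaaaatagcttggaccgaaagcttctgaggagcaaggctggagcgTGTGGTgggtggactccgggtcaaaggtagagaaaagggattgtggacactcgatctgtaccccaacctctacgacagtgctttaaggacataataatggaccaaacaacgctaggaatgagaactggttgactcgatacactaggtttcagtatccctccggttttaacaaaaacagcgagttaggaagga
Spp1 upstream window, chr5:104434861-104435110, + strand: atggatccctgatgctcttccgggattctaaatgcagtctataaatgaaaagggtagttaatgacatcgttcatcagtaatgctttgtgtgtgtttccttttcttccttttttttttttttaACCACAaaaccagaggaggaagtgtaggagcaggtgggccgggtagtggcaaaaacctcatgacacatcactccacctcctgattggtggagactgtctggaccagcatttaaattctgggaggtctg
A match is a description of letters and not evidence of binding.

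The comparison of the Runx3 IP with the pull-downs of the other lines asks how far the 8 genes mark the ribosome-bound RNA of the Runx3-Cre cells. All 8 were higher in Runx3 pull-downs than in Isl1 pull-downs, by 2.02 to 3.32 on the log2 scale (edgeR quasi-likelihood test, Benjamini-Hochberg adjusted p under 0.1, the threshold used throughout), and in each case no library of one group overlapped with the other. Among all 10521 genes tested in this comparison 30% were called higher, and 20.9% were higher without overlap. The median log2 change was 2.73 over the 8 genes and 0.06 over all genes tested. Summed, the 8 genes took 3988 ± 603 CPM in Runx3 pull-downs (SD, n = 3), against 570 ± 56 in Isl1 pull-downs, 559 ± 108 in Adv pull-downs, 546 ± 155 in PGK pull-downs and 553 ± 6.77 in Dhh pull-downs (n = 2). In bulk pull-downs such as these, fewer cells of a type and less RNA per cell cannot be told apart.

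Among the transcription factors, Runx3 had 80.1, 56.8 and 71.4 CPM in Runx3 pull-downs, against 9.39, 16.6 and 17.4 CPM in Isl1 pull-downs. It ranged from 7.31 to 12.1 CPM over the 6 Adv and PGK pull-downs and had 1.39 and 0.87 CPM in Dhh pull-downs. The lowest Runx3 IP library was thus above every library of the other lines, and the change over the Isl1 IP was 2.46 ± 0.24 (log2 ± SE, adjusted p = 5.44e-06). Runx3 is also the driver gene of this line, and no source used here says what the Cre insertion does to the reads counted for it.

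Etv1 had 280, 146 and 226 CPM in Runx3 pull-downs, against 37.1, 78.5 and 68.6 CPM in Isl1 pull-downs, 35 to 65.2 CPM in Adv and PGK pull-downs and 33.6 and 40.1 CPM in Dhh pull-downs. The groups did not overlap, the change over the Isl1 IP being 2.02 ± 0.30 (adjusted p = 0.000142), and the Dhh libraries lay at the low end of the Isl1, Adv and PGK libraries rather than far below them. Esrrb, the third transcription factor, had 61.7, 46.4 and 53.6 CPM in Runx3 pull-downs, against 6.15, 10.4 and 8.6 CPM in Isl1 pull-downs, and only 0.439 and 0.315 CPM in Dhh pull-downs. Its change over the Isl1 IP was 2.89 ± 0.20 (adjusted p = 2.67e-07), with all 3 Runx3 libraries far above the rest.

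Pvalb, the calcium buffer most used to mark these neurons, had 1460, 2875 and 1890 CPM in Runx3 pull-downs, against 330, 169 and 226 CPM in Isl1 pull-downs. The Adv IP had 255, 400 and 239 CPM, the PGK IP 150, 400 and 144 CPM and the Dhh IP 18.4 and 8.2 CPM. In the Runx3, Adv and PGK lines the highest Pvalb level was in the same pull-down that stood apart for its ribosomal RNA, and the change over Isl1 pull-downs was 3.32 ± 0.53 with all libraries (adjusted p = 0.000251) and 2.87 ± 0.34 without those of that number, and was called in both. Calb2, the other calcium buffer, had 147, 274 and 175 CPM in Runx3 pull-downs, against 41.2, 30.7 and 38.8 CPM in Isl1 pull-downs, and 1.89 and 0.648 CPM in Dhh pull-downs. Its highest Runx3 library was again the library numbered 2, and its change over Isl1 pull-downs was 2.65 ± 0.40 with all libraries and 2.21 ± 0.29 without those of that number (adjusted p = 0.000171 for both).

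Whrn, the scaffold gene, had 205, 141 and 168 CPM in Runx3 pull-downs, against 18.5, 32.1 and 33.4 CPM in Isl1 pull-downs, 16.7 to 27.1 CPM in Adv and PGK pull-downs and 12.3 and 11.5 CPM in Dhh pull-downs. The Dhh libraries lay below every neuronal library, but by much less than for Pvalb or Esrrb, and the change of the Runx3 IP over the Isl1 IP was 2.82 ± 0.23 (adjusted p = 1.06e-06). Of the secreted products, Nxph1 was the least abundant in counts, with 37, 21.6 and 32.7 CPM in Runx3 pull-downs, against 3.81, 6.71 and 7.8 CPM in Isl1 pull-downs and 0.577 and 0.315 CPM in Dhh pull-downs. All Runx3 libraries were above all others, and the change over the Isl1 IP was 2.51 ± 0.41 (adjusted p = 0.000309).

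Spp1 had an order of its own. It had 1165, 1070 and 1282 CPM in Runx3 pull-downs, against 163, 162 and 195 CPM in Isl1 pull-downs, 152, 156 and 110 in Adv pull-downs, 212, 215 and 154 in PGK pull-downs and 490 and 487 CPM in Dhh pull-downs. The Runx3 libraries were again the highest, but the Dhh libraries came next and lay above every Isl1, Adv and PGK library. The change of the Runx3 IP was 2.96 ± 0.19 over the Isl1 IP (adjusted p = 1.51e-07) and 1.41 ± 0.20 over the Dhh IP (adjusted p = 4.06e-05).

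**Figure D1:**
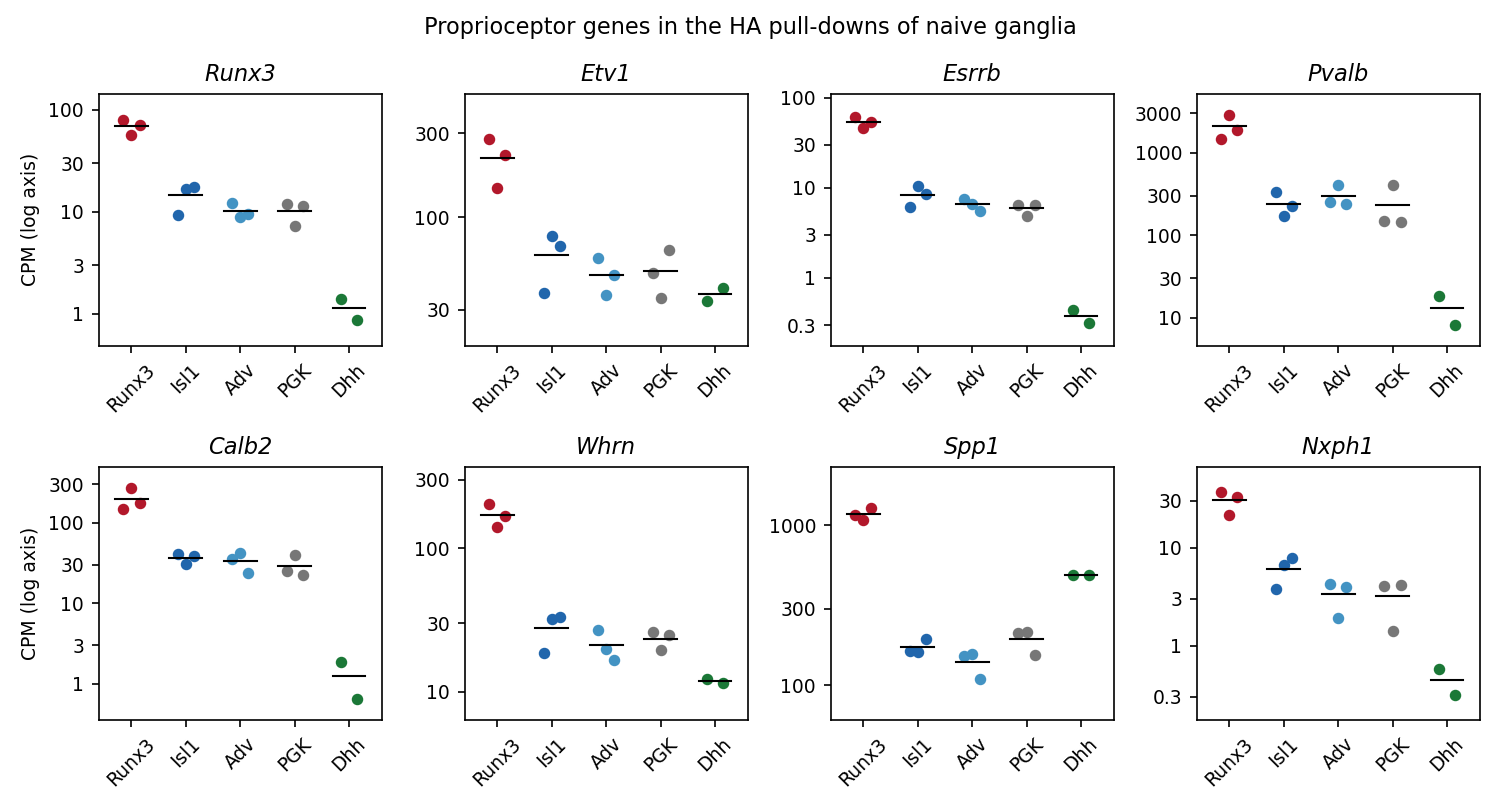
Level of each of the 8 genes (CPM, log axis) in every naive pull-down, by line, with points for libraries and bars for group means. The Runx3 libraries are the highest for all 8 genes, the Dhh libraries the lowest for all but Etv1, which overlaps, and Spp1, which is next to the Runx3 libraries at 490 and 487 CPM.

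Against the Adv IP the 8 genes were higher in Runx3 pull-downs by 2.36 (Etv1) to 3.33 (Nxph1) on the log2 scale, where 31.1% of all genes were called higher. Against the PGK IP the changes ran from 2.40 (Etv1) to 3.52 (Nxph1), with 31.2% of all genes called higher. Against the Dhh IP they ran from 1.41 (Spp1) to 7.48 (Calb2), with 42.6% of all genes called higher. The 8 genes fell into 2 sets in that last comparison: Calb2, Pvalb, Esrrb, Nxph1 and Runx3 differed by 6.09 or more, and Whrn, Etv1 and Spp1 by 3.99 or less. The 4 comparisons share the Runx3 libraries and are therefore not independent of each other. Of the genes called in the comparisons with the Isl1, Adv and PGK IPs, 53.7%, 54% and 48% were higher with TMM scaling (trimmed mean of M values) but 37.3%, 40.5% and 31.2% with library totals, which put the median of all genes at −0.15, −0.11 and −0.28, and all 8 members were called higher under either scaling.

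**Figure D2:**
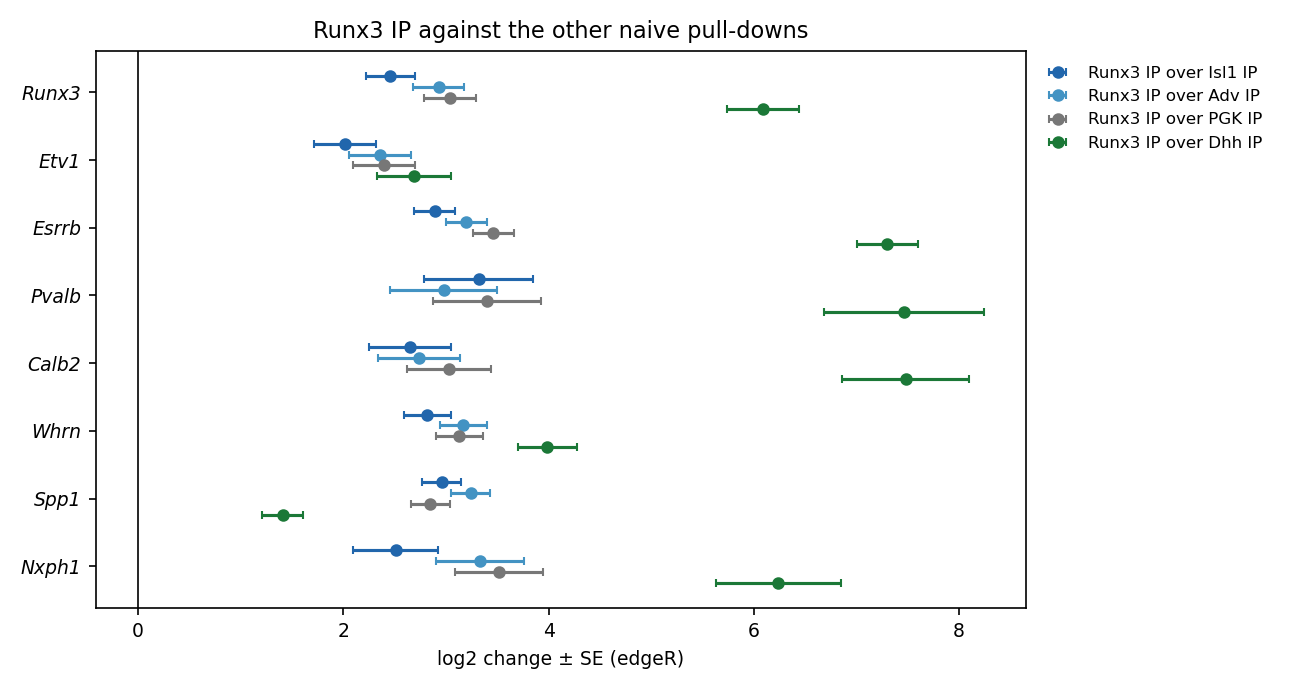
Change of each gene (log2 ± SE, edgeR) in Runx3 pull-downs over the Isl1, Adv, PGK and Dhh IPs. All 32 changes lie above 0, those over the neuronal and PGK lines between 2.02 and 3.52 and those over the Dhh IP between 1.41 for Spp1 and 7.48 for Calb2.

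In the Isl1 IP against the Adv IP, both sensory-neuron lines, 0 of the 8 were called and 0 had an unadjusted p under 0.05 (edgeR), and DESeq2 called 0 as well. Over all genes 0 were called, that is 0% (edgeR), with 1263 at an unadjusted p under 0.05 and 189 called by DESeq2. Values ran from −0.35 ± 0.48 for Pvalb to 0.81 ± 0.40 for Nxph1 on the log2 scale. In the Isl1 IP against the Dhh IP, 7 members were called higher, where 43.5% of all genes were, and 1 lower, where 41.3% were. Calb2 was higher by 4.83 ± 0.55, Esrrb by 4.42 ± 0.27, Pvalb by 4.14 ± 0.66, Nxph1 by 3.73 ± 0.55, Runx3 by 3.63 ± 0.32 and Whrn by 1.17 ± 0.25. Etv1 was higher by 0.67 ± 0.33 (adjusted p = 0.0789) with overlapping libraries, a call lost when either Dhh library or the Isl1 library numbered 2 or 3 was left out (adjusted p = 0.148 to 0.382). In the naive groups of the injury courses the order of Etv1 was the other way, though that was not tested. There Etv1 averaged 269 ± 27 CPM in Dhh pull-downs and 127 ± 14.3 CPM in Isl1 pull-downs. Spp1 was the member that was lower in Isl1 pull-downs, by −1.56 ± 0.19 (adjusted p = 1e-05).

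Levels of different genes were compared per transcript length, as FPKM (CPM divided by the annotated transcript length in kilobases). In the Runx3 IP Pvalb led with a level of 2177 ± 761 FPKM (SD, n = 3) and made up 66.7% of the summed FPKM of the 8 genes. Spp1 followed with 831 ± 75.2 FPKM, Calb2 with 139 ± 46.7, Whrn with 42.7 ± 7.99, Etv1 with 33 ± 10.2, Runx3 with 17.9 ± 3.03, Esrrb with 12.8 ± 1.82 and Nxph1 with 11.8 ± 3.08. Whrn and Etv1, and likewise Esrrb and Nxph1, differed by less than the larger of their SDs, whereas each other step in the order was larger than that. Pvalb, Spp1 and Calb2 headed the order in the Isl1, Adv and PGK IPs as well, with 57.9 to 69% of the summed FPKM in Pvalb. In the Dhh IP Spp1 alone made up 93.5%, at 346 ± 1.42 FPKM (n = 2), against 14 ± 7.57 FPKM of Pvalb and 5.61 ± 0.692 of Etv1.

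Markers of other cells moved with the Runx3 IP too. The nociceptor list (sodium channel genes Scn10a and Scn11a, the transcription factor Prdm12 and 15 others) summed to 395 ± 46.8 CPM in Runx3 pull-downs, against 6180 ± 1065 CPM in Isl1 pull-downs, and 18 of 18 tested members were called lower, where 25.8% of all genes were, with a median log2 change of −4.17. Prdm12 had 13.2 to 14.6 CPM in Runx3 pull-downs, against 230.0 to 316 CPM in Isl1 pull-downs. Sensory neuron markers as a whole summed to 23494 ± 341 CPM in Runx3 pull-downs and 26064 ± 2280 CPM in Isl1 pull-downs, with 2 of 15 called higher, 6 lower and a median of −0.07. Among them Snap25, a synaptic vesicle fusion gene, had 5768 ± 221 CPM in Runx3 pull-downs, against 2625 ± 306 in Isl1 pull-downs, and Syt1 and Pou4f1 were lower by −2.59 ± 0.22 and −0.96 ± 0.13. Schwann cell and satellite glia markers summed to 2464 to 2959 CPM in Runx3 pull-downs and 2074 to 2489 CPM in Isl1 pull-downs. Of the 15, 2 were called higher and 1 lower, where 30% and 25.8% of all genes were. In Runx3 pull-downs most of this sum was S100b, at 2242 ± 268 CPM. S100b had 1212 ± 237 CPM in Isl1 pull-downs and 1181 ± 272 in Dhh pull-downs (n = 2), so the sum does not measure glial RNA alone. Pmp22 had 127 ± 10.5 CPM in Runx3 pull-downs, against 792 ± 61.5 in Isl1 pull-downs.

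Most genes tied to large fibres were higher with the members. Of 18 genes for conduction and transmission in large fibres, 16 were tested in Runx3 pull-downs against the Isl1 IP. Of these 13 were called higher and 2 lower, and their median was 1.48. Of all genes tested there 30% were called higher and 25.8% lower, the shares for every count in this paragraph. Slc17a7, a vesicular glutamate transporter, had 1077 ± 160 CPM in Runx3 pull-downs, against 291 ± 69.1 CPM in Isl1 pull-downs. Cntnap2, a protein of the axon near the node of Ranvier, had 431 ± 7.79 against 147 ± 6.55 CPM in Isl1 pull-downs. Ldhb, a lactate dehydrogenase subunit, had 1115 ± 68.2 against 371 ± 15.6 CPM, but 759 ± 4.68 CPM in Dhh pull-downs (n = 2). Of 16 other genes associated with proprioceptors, 12 were tested, 7 were called higher and 1 lower, with a median of 0.90. Chodl was higher by 3.66 ± 0.23 (adjusted p = 1.2e-07), Lmcd1 by 3.14 ± 0.29 and the GABA receptor subunit gene Gabrg1 by 1.87 ± 0.16. The summed list was 899 to 1098 CPM in Runx3 pull-downs and 721 to 1030 CPM in Isl1 pull-downs. Group means of Chodl were 13.4 CPM in Runx3 pull-downs and at most 1.47 CPM (PGK) in the other lines. A gene so low elsewhere could pass the filter on mean level mainly through the Runx3 libraries, which favours a call of higher. Genes of low-threshold mechanoreceptors, the touch neurons, were mostly lower: 7 of 11 were called lower and 2 higher, and the GDNF-family receptor gene Gfra2 had 21.1 ± 4.48 CPM in Runx3 pull-downs, against 390 ± 12.5 CPM in Isl1 pull-downs.

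Most immune markers tested were also higher in Runx3 than in Isl1 pull-downs, at low levels. Neutrophil markers summed to 67.6 to 234 CPM in Runx3 pull-downs, against 4.32 to 10.5 CPM in Isl1 pull-downs. Of the 9 genes in that list 6 were tested and all 6 were called higher, where 30% of all genes were. Ltf was among them, with 15.8 ± 12.1 against 0.793 ± 0.449 CPM. Macrophage markers summed to 68.9 to 143 CPM in Runx3 pull-downs and 14.3 to 30.4 CPM in Isl1 pull-downs, with 5 of 6 called higher, for example Lyz2 by 2.76 ± 0.80. In PGK pull-downs, however, the group means were above those in Runx3 pull-downs for Lyz2 (62.7 against 37.2 CPM), C1qa (45.6 against 19.9) and Csf1r (13.1 against 5.88). T and NK cell markers summed to 9.17 to 22.7 CPM in Runx3 pull-downs and 1.13 to 1.34 CPM in Isl1 pull-downs. Of the 12 genes in that list only Ccl5 was tested, higher by 4.95 ± 0.67. Its group means were 3.08 CPM in Runx3 pull-downs and at most 0.879 CPM (PGK) in the other lines. The filter on low levels averages over all naive pull-downs. A rare immune gene could thus enter mainly through the Runx3 libraries, which favours a call of higher. Of 4 mast cell genes tested 3 were higher and Kit was lower, by −2.70 ± 0.23, with Mrgprb2 at 0 in all Isl1 libraries. The list summed to 36.8 to 98.8 CPM in Runx3 pull-downs and 42.4 to 50.9 CPM in Isl1 pull-downs. Kit alone had 38.9 to 47.5 CPM in Isl1 pull-downs and 234 ± 76.5 in Dhh pull-downs (n = 2). The sum therefore does not measure mast cell RNA alone. Tpsb2 had 18.7 ± 11.1 CPM in Runx3 pull-downs, against 0.506 ± 0.171 in Isl1 pull-downs, and Cma1 11.1 ± 6.57 against 0.359 ± 0.0917. No listed neutrophil, macrophage or T and NK cell marker was at 0 in all libraries of either group. For Runx3 and Spp1, which such cells also express, the part of these cells in the levels was not tested. Bone and cartilage markers summed to 11.5 to 19 CPM in Runx3 pull-downs and 16.6 to 29.5 CPM in Isl1 pull-downs.

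Pull-down and whole lysate were then compared within each line, in 1 fit over the 10206 genes tested in both tables. In the Runx3 line all 8 genes were higher in pull-downs than in whole lysate, by 2.38 ± 0.32 (Calb2) to 3.68 ± 0.44 (Nxph1) on the log2 scale, where 35.7% of all genes were called higher. Of all genes called there 48.7% were higher, and 37.2% with library totals, under which the 8 were called as well. Pvalb had 1460, 2875 and 1890 CPM in Runx3 pull-downs, against 309, 467 and 447 CPM in the Runx3 input. Every library of the IP was above every library of the input, as for the other 7 genes, where 22.6% of all genes were higher without overlap. Esrrb had 61.7, 46.4 and 53.6 CPM in Runx3 pull-downs, against 6.81, 5.88 and 4.99 CPM in the input, a change of 3.40 ± 0.19 (adjusted p = 5.29e-13). Schwann cell and satellite glia markers went the other way in the same comparison, with 13 of 15 lower, where 37.7% of all genes were called lower. The 6 neutrophil markers gave 0 calls, where 73.4% of all genes were called in either direction.

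The Isl1, Adv and PGK lines showed little of this. In the Isl1 line 2 of the 8 genes were called, both higher, Etv1 by 0.57 ± 0.22 (adjusted p = 0.0667) and Esrrb by 0.41 ± 0.17 (adjusted p = 0.0833), where 12.7% of all genes were called higher. Their libraries overlapped: Etv1 had 37.1, 78.5 and 68.6 CPM in Isl1 pull-downs, against 35.6, 45.8 and 46.4 CPM in the Isl1 input. Both calls were lost with library totals (adjusted p = 0.149 and 0.202) and both without the Isl1 pull-down numbered 2 or 3 or the input numbered 1 (adjusted p = 0.161 to 0.418). Etv1 was not called without the input numbered 3 either (adjusted p = 0.101), nor Esrrb without the input numbered 2 (adjusted p = 0.114). With the replicate number as a block, 3 genes were called, the third being Whrn at 0.33 ± 0.13 (adjusted p = 0.0693). Of all genes called in this line 39.6% were higher, and 27% with library totals.

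In the Adv line Spp1 was lower in pull-downs than in whole lysate, by −0.57 ± 0.21 (adjusted p = 0.0304), with 152, 156 and 110 CPM in Adv pull-downs, against 206 to 230 CPM in the Adv input, where 25.4% of all genes were called lower. The Spp1 libraries did not overlap, where 31.8% of all genes were lower without overlap, but the call was lost without the Adv IP library numbered 3 or the input library numbered 3 (adjusted p = 0.158 and 0.1). Esrrb was called higher by 0.39 ± 0.17 (adjusted p = 0.0774), where 21.9% of all genes were, with overlapping libraries, and it was not called without the Adv IP library numbered 1 or 2 or the input library numbered 3 (adjusted p = 0.185 to 0.353). The remaining 6 genes were not called, but Whrn, at 0.51 with all libraries, was called without the Adv IP library numbered 3 (0.66 ± 0.31, adjusted p = 0.0999) or the input library numbered 1 (0.76 ± 0.31, adjusted p = 0.0575), and Etv1, at 0.37, without the second pull-downs (0.49 ± 0.21, adjusted p = 0.0697). Of all genes called in the Adv line 46.3% were higher, and 34.1% with library totals.

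In the PGK line, whose driver is active in all cells, 0 of the 8 genes were called, 0 had an unadjusted p under 0.05 and DESeq2 called 0, where 19% of all genes were called in either direction. With the replicate number as a block 3 were called, Etv1 higher by 0.39 ± 0.14 (adjusted p = 0.0562), Whrn higher by 0.41 ± 0.14 (adjusted p = 0.0417) and Pvalb lower by −0.88 ± 0.28 (adjusted p = 0.0359). Pvalb had 150, 400 and 144 CPM in PGK pull-downs, against 285, 445 and 370 CPM in the PGK input. Its libraries overlapped only through the pull-down numbered 2, without which the change was −1.45 ± 0.38 (adjusted p = 0.0136). The split of all genes called was 46.8% higher, and 58.9% with library totals.

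The Dhh line divided the 8 genes. Pvalb, Calb2, Esrrb, Runx3 and Nxph1 were lower in Dhh pull-downs than in whole lysate, by −4.82 ± 0.56, −4.54 ± 0.45, −3.93 ± 0.25, −3.19 ± 0.35 and −2.84 ± 0.54, where 42% of all genes were called lower. Spp1 was higher, by 1.24 ± 0.23 (adjusted p = 3.35e-05), where 43% of all genes were called higher. It had 490 and 487 CPM in Dhh pull-downs, against 194, 290 and 175 CPM in the Dhh input, without overlap, as 42.3% of all genes were higher. Etv1, at −0.03 ± 0.25, and Whrn, at −0.41 ± 0.32, were not called, though Whrn was without the input numbered 2 (−0.62 ± 0.33, adjusted p = 0.0857). Beside these values, Schwann cell and satellite glia markers summed to 92115 to 111526 CPM in Dhh pull-downs and 9220 to 10985 CPM in the input, and sensory neuron markers to 915 to 1423 CPM in Dhh pull-downs and 19830 to 21373 CPM in the input.

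**Figure D3:**
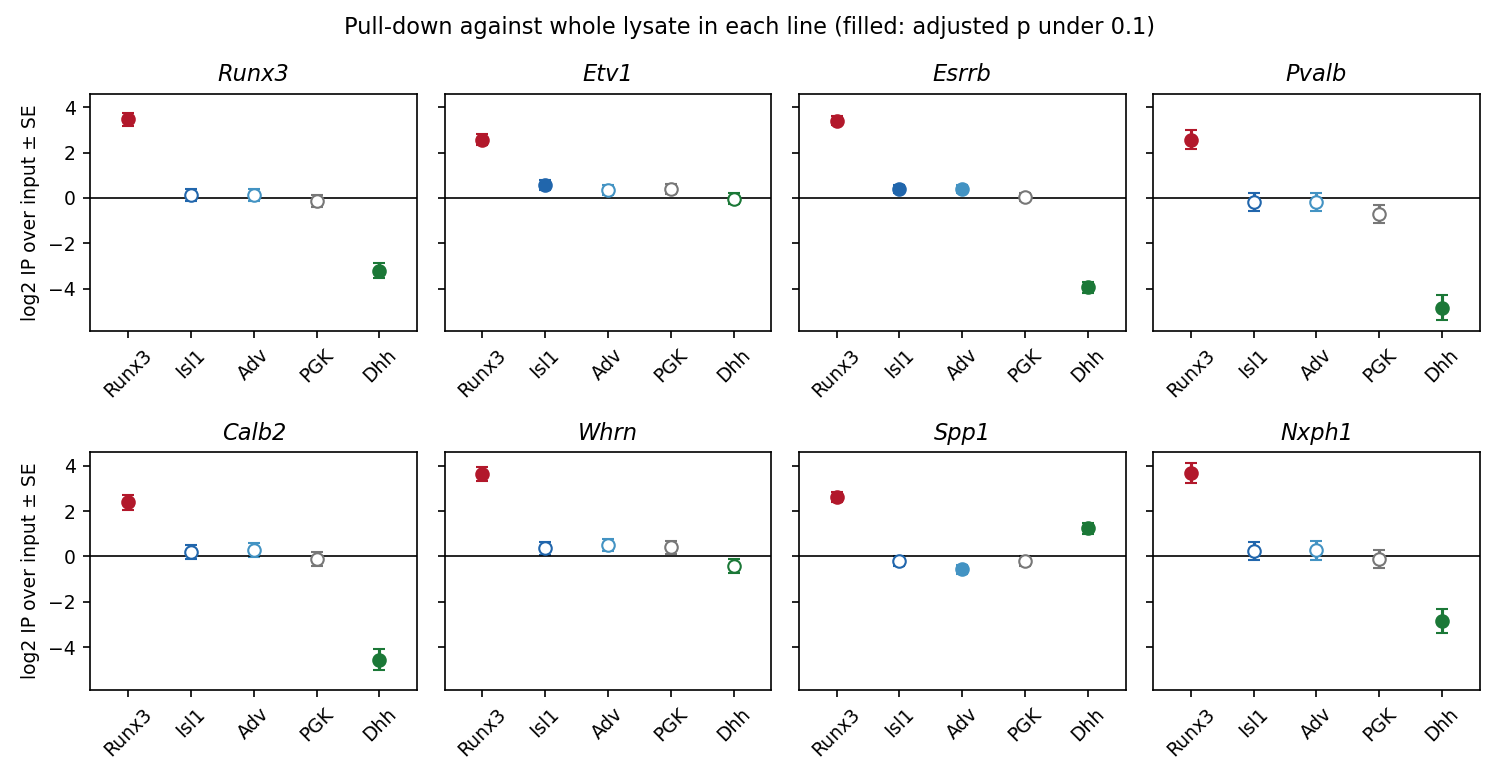
Change of each gene between pull-down and whole lysate in each line (log2 IP over input ± SE, edgeR), with filled symbols for adjusted p under 0.1. In the Runx3 line all 8 genes lie between 2.38 and 3.68, in the Isl1, Adv and PGK lines between −0.69 and 0.57, and in the Dhh line 5 genes lie at −2.84 or below and Spp1 at 1.24.

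Supernatant and input of the Runx3 line were compared to see whether the pull-down took a visible share of these RNAs out of the lysate. No member was called (edgeR, 0 of 8), where 1 of 10362 genes was, or 0.00965%, and DESeq2 called 0 members and 65 genes. At an unadjusted p under 0.05 there were 943 genes and 4 members, the members all lower: Pvalb by −0.98 ± 0.31, Spp1 by −0.52 ± 0.23, Calb2 by −0.52 ± 0.24 and Esrrb by −0.47 ± 0.17 (adjusted p = 0.361 to 0.541). With the replicate number as a block in edgeR, 3 members were called lower, and more of all genes were called too. These were Pvalb at −0.98 ± 0.21 (adjusted p = 0.0438), Spp1 at −0.51 ± 0.13 (adjusted p = 0.0603) and Esrrb at −0.47 ± 0.14 (adjusted p = 0.092). The study set part of each lysate aside as input, but no label says that a number joins fractions of 1 lysate. Pvalb had 195, 287 and 184 CPM in the Runx3 supernatant, against 309, 467 and 447 CPM in the input. Esrrb had 4.59, 4.65 and 4.36 CPM in the supernatant, against 6.81, 5.88 and 4.99 CPM in the input. For these 2 genes the libraries did not overlap, where 2.79% of all genes were lower without overlap. Summed over the 8 genes, the Runx3 supernatant had 446 to 583 CPM, against 616 to 819 CPM in the Runx3 input, while group means in the supernatants of the other 4 lines were 627 to 688 CPM.

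**Figure D4:**
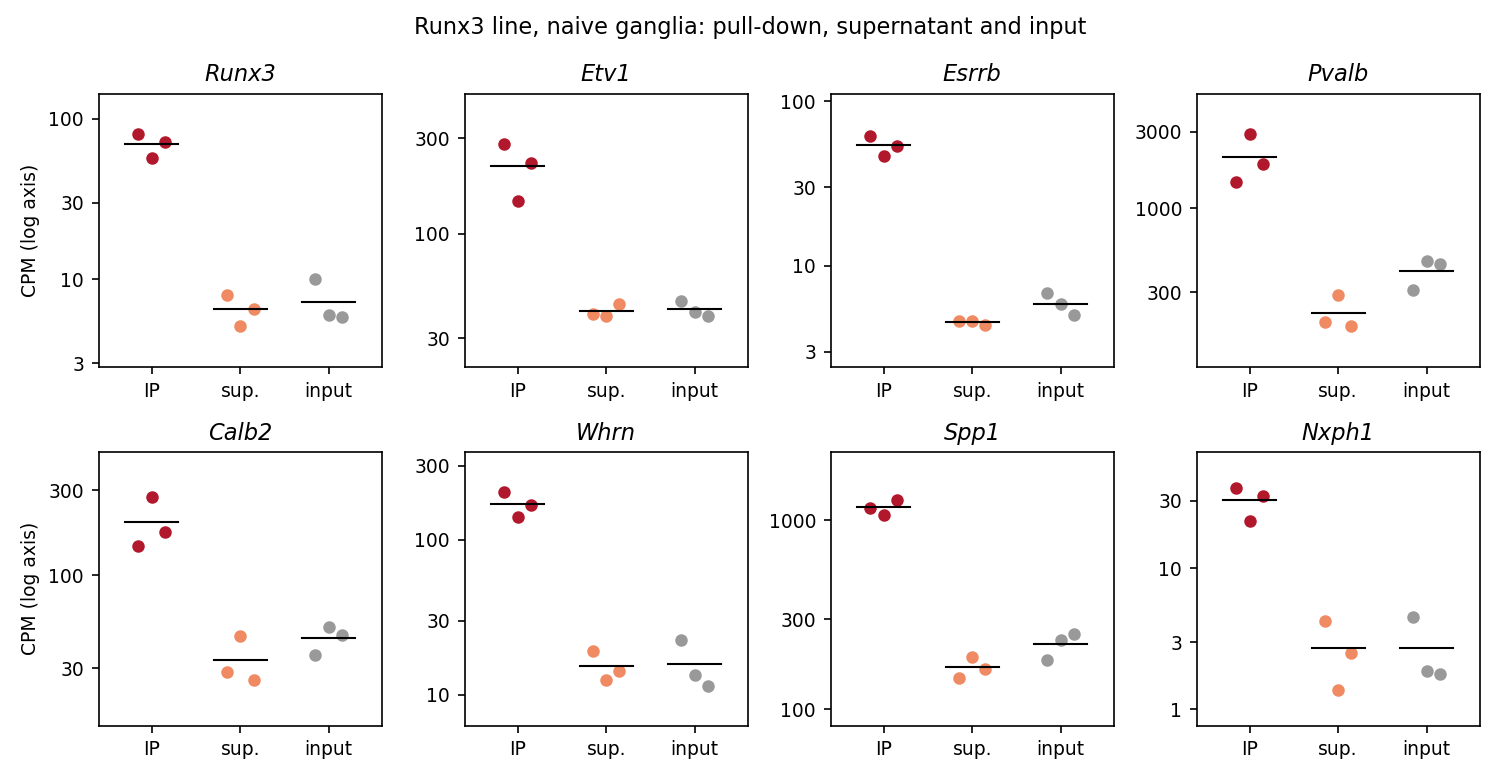
Level of each gene (CPM, log axis) in the pull-down, supernatant and input of the naive Runx3 line, with points for libraries and bars for group means. The IP libraries lie above both lysate fractions for all 8 genes, and for Pvalb the supernatant, at 184 to 287 CPM, lies below the input, at 309 to 467 CPM.

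The whole lysates of the Runx3 line served as the background for the comparison between lines. Against the Isl1 input 0 of the 8 genes and 0% of all genes were called (edgeR), with 4 members and 1478 genes at an unadjusted p under 0.05, and DESeq2 called 0 members and 40 genes. Those 4 members went in both directions, Runx3 at −0.87 ± 0.28 and Nxph1 at −0.92 ± 0.39, Pvalb at 0.59 ± 0.22 and Calb2 at 0.49 ± 0.18, all at an adjusted p of 0.364. Runx3 had 10, 5.95 and 5.81 CPM in the Runx3 input, against 10.3, 15.4 and 15.6 CPM in the Isl1 input. The libraries of Runx3 did not overlap, where 10.6% of all genes were lower without overlap, nor did those of Pvalb and Calb2, where 7.78% were higher without overlap. Against the Adv input 0 members and 0% of genes were called (edgeR), with 1 member, Calb2 at 0.61 ± 0.18, and 164 genes at an unadjusted p under 0.05, and DESeq2 called 0 genes.

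The injury time course of the Isl1 line asks whether the 8 genes change on neuronal ribosomes after sciatic nerve injury. At 4 h 0 of the 8 were called in the IP, where 3.13% of 11301 genes were, and 1 member (Whrn) and 1435 genes had an unadjusted p under 0.05. Nxph1 lay above naive without overlap at 4 h, as 12.6% of all genes did, with 7.44 to 7.85 CPM at 4 h and 6.05 to 7.1 CPM in naive pull-downs (adjusted p = 0.504). At 12 h 0 were called, where 5.14% of genes were, and 1 member (Spp1) and 2105 genes had an unadjusted p under 0.05. DESeq2 called 0 members at both times. At 24 h Spp1 was called higher, where 11.1% of genes were, and Whrn lower, where 7.42% were.

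Spp1 had 189, 207 and 191 CPM in naive Isl1 pull-downs, 213, 194 and 174 CPM at 4 h, 225, 234 and 197 CPM at 12 h and 271, 260 and 252 CPM at 24 h. The 24 h libraries lay above all others of the course, where 12.7% of all genes were above naive without overlap, and the change from naive was 0.44 ± 0.08 (adjusted p = 0.00271). In 13 alternative fits it stayed between 0.41 and 0.48 and was called each time. Macrophage markers, of which 4 of 12 were listed in this table, summed to 8.09 to 9.92 CPM at 24 h and 9.08 to 13.5 CPM in naive pull-downs. Of these, 0 of 4 were called, where 18.6% of all genes were in either direction. So few genes at such levels cannot show whether macrophages had a part in the level of Spp1, which was not tested. Whrn had 24.4, 28.8 and 21.4 CPM in naive pull-downs, 20.7, 22.3 and 19.5 CPM at 4 h, 22.4, 21.7 and 20.6 CPM at 12 h and 20.1, 20.9 and 17.1 CPM at 24 h. The naive and 24 h libraries did not overlap, by a narrow gap, where 17.4% of all genes were lower without overlap, and the change was −0.34 ± 0.11 (adjusted p = 0.065). That call was lost without the 24 h library numbered 1 or 3 or the naive library numbered 1 or 2 (adjusted p = 0.101 to 0.293), and in a fit of the 2 groups alone (adjusted p = 0.161).

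The other 6 genes had values between −0.27 ± 0.14 (Esrrb) and 0.08 ± 0.12 (Nxph1) at 24 h and none was called. Etv1 had 131, 139 and 111 CPM in naive Isl1 pull-downs and 96.6, 115 and 118 CPM at 24 h, with overlap, and Pvalb averaged 109 ± 11.3 CPM in naive pull-downs, 119 ± 15.8 at 4 h, 122 ± 20.1 at 12 h and 111 ± 11.9 at 24 h (SD, n = 3 each). Leaving out 1 library gave a call for Esrrb (−0.42 ± 0.13 without the 24 h library numbered 2, adjusted p = 0.0369) and for Etv1 (−0.27 ± 0.09 without the naive library numbered 3, adjusted p = 0.0864). In the same libraries 9 of 10 tested genes of an injury-induced neuronal list were called higher at 24 h, with a median of 1.77, against a median of −0.05 over the 8 members and −0.01 over all genes. Of the other proprioceptor-associated genes 2 of 11 were lower and 0 higher, and of the large-fibre genes 1 of 18 was lower and 0 higher. Over all genes tested there, 11.1% were called higher and 7.42% lower. The few calls among the proprioceptor-associated and large-fibre genes are not read as a result about either list. Of all genes called in the IP at 24 h 60.1% were higher, and 49.2% with library totals.

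In the Isl1 input 0 members were called at 4, 12 and 24 h, where 1.28%, 4.48% and 8.42% of 12238 genes were. At an unadjusted p under 0.05 there were 0, 0 and 1 members, the 1 being Etv1 at 24 h, beside 1500, 2163 and 2409 genes. Etv1 had 139, 157 and 137 CPM in naive inputs, 146 and 149 CPM at 4 h, 129 and 142 CPM at 12 h and 113 and 126 CPM at 24 h. The 24 h inputs lay below all others, where 22.3% of all genes were below naive without overlap, at −0.24 ± 0.08 from naive (adjusted p = 0.132), and DESeq2 called this difference (adjusted p = 0.0675). Spp1 in the input was at 0.24 ± 0.11 at 24 h (adjusted p = 0.272). Without the 24 h input numbered 3, which leaves 1 library assumed to vary like the other groups, it was called at 0.39 ± 0.12 (adjusted p = 0.0693). The higher share of all genes called in the input was 40.8%, 49.6% and 67.4% at the 3 times, and 27.1%, 38.1% and 57.3% with library totals.

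Whether the response of the IP differed from that of the input was tested as an interaction over 11312 genes. It was called for 0 members at 4, 12 and 24 h, where 0.0265%, 0.0177% and 0% of genes were, with 0 members at an unadjusted p under 0.05 at each time, and DESeq2 called 0 members. Of all genes 376, 424 and 358 had an unadjusted p under 0.05. The largest value at 24 h was that of Whrn, at −0.25 ± 0.22, and Spp1 was at 0.22 ± 0.15 (adjusted p = 0.998 for both). The rise of Spp1 in the IP is therefore not shown to differ from its change in the whole ganglion.

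The Dhh injury table listed Etv1 and Spp1 alone of the 8 genes. Its libraries are labelled as sensory neurons, although the line and its naive pull-downs are labelled as glial. In them Schwann cell and satellite glia markers summed to 29073 to 44198 CPM and sensory neuron markers to 529 to 689 CPM, against 1573 to 2552 CPM and 18339 to 20086 CPM in the Isl1 IP course, so the markers went with the Dhh driver and not with the label. Etv1 was called lower at 4 h, where 0.627% of 11000 genes were. It had 286, 238 and 282 CPM in naive Dhh pull-downs, 131, 147 and 170 CPM at 4 h, 212, 203 and 170 CPM at 12 h and 289 and 263 CPM at 24 h. The 4 h libraries lay below every naive library, where 12.6% of all genes did, the 12 h libraries between, 1 of them level with the highest at 4 h, and the 24 h libraries within or just above the naive range.

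The change of Etv1 at 4 h was −0.82 ± 0.13 (adjusted p = 0.00428) and stayed between −0.93 and −0.74, called each time, in 13 alternative fits. In the same libraries glial markers summed to 38556 to 44198 CPM at 4 h and 32329 to 38952 CPM in naive ganglia, and sensory neuron markers to 529 to 661 CPM at 4 h and 534 to 573 CPM in naive ganglia; the part of the cell makeup in the level was not tested. At 12 h the change was −0.28 ± 0.13 (adjusted p = 0.121), where 32.9% of genes were called. With library totals, which shifted the median of all genes to −0.20 and the higher share of calls to 28.1% from 53.7%, it was −0.46 ± 0.13 (adjusted p = 0.0164), and it was also called without the naive library numbered 2 (adjusted p = 0.0831). By 24 h it was 0.02 ± 0.14, with 2.7% of genes called. Spp1 had 272, 315 and 327 CPM in naive Dhh pull-downs, 276, 238 and 457 CPM at 4 h, 198, 198 and 243 CPM at 12 h and 155 and 300 CPM at 24 h. Its libraries spread widely at 4 and 24 h, and those at 12 h lay below all naive libraries, where 29.7% of all genes did, but the changes of 0.12 ± 0.24, −0.31 ± 0.24 and −0.44 ± 0.27 were not called.

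**Figure D5:**
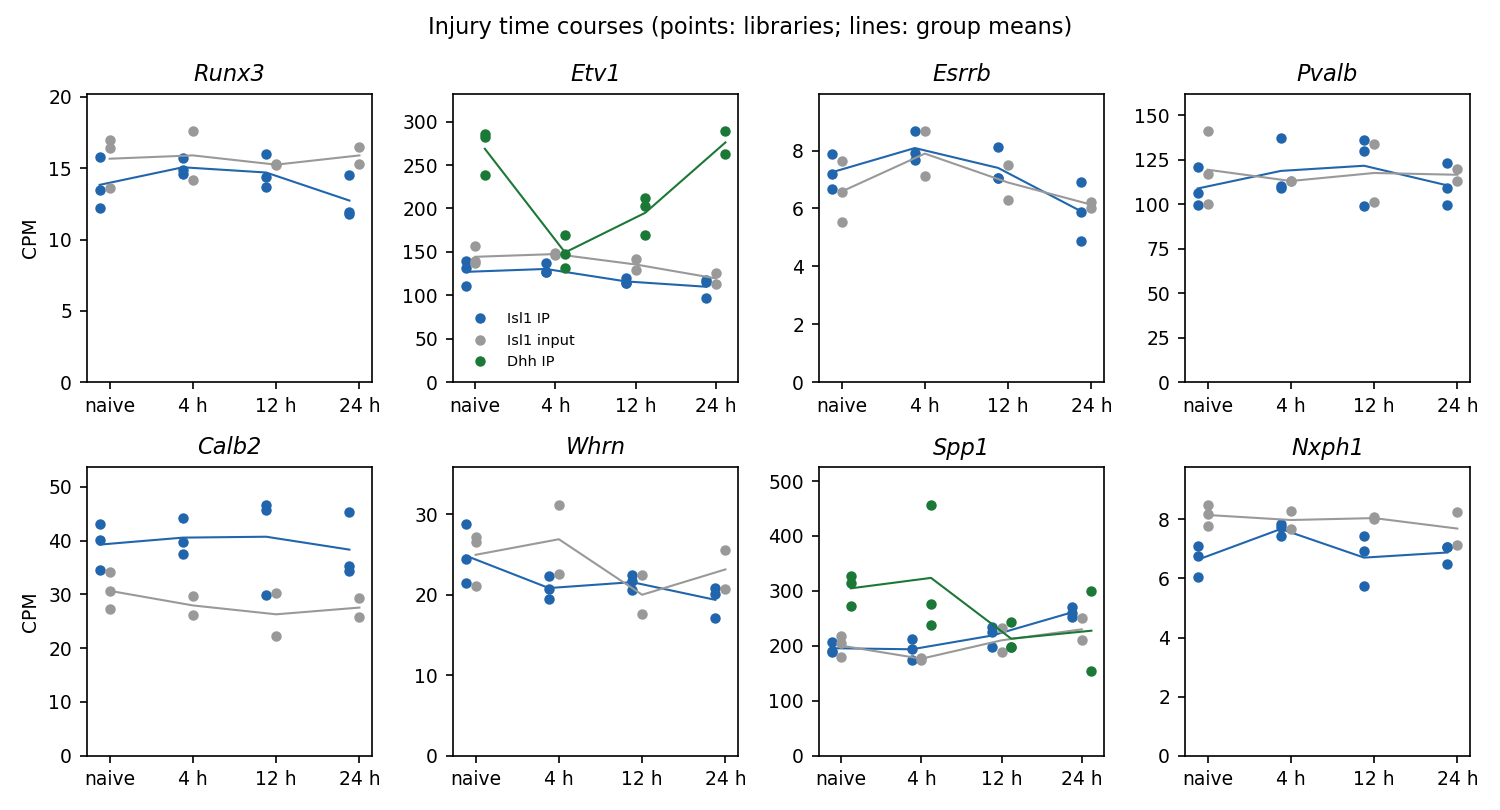
Level of each gene (CPM) in naive ganglia and 4, 12 and 24 h after nerve injury, in Isl1 pull-downs, the Isl1 input and, for Etv1 and Spp1, the Dhh IP, with points for libraries and lines through group means. Spp1 in Isl1 pull-downs is highest at 24 h (252 to 271 CPM) and Etv1 in Dhh pull-downs is lowest at 4 h (131 to 170 CPM).

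Naive pull-downs of the Isl1 and Dhh lines occur in 2 sets of tables, whose levels are given side by side with no test, since the tables list different genes. Etv1 averaged 127 ± 14.3 CPM in the Isl1 IP of the injury table and 61.4 CPM in that of the naive table, and in Dhh pull-downs 269 ± 27 CPM in the injury table and 36.9 CPM in the naive table. Its Dhh level was thus above its Isl1 level in the injury tables and below it in the naive table. Pvalb in Isl1 pull-downs averaged 109 ± 11.3 CPM in the injury table and 242 CPM in the naive table. Spp1 in Isl1 pull-downs averaged 196 ± 9.58 CPM in the injury table and 173 CPM in the naive table. The levels of a member thus depended on the set of libraries by as much as several fold, and comparisons were made only within a table or a joint fit of libraries of 1 set.

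The 10 genes whose levels followed the mean standardised level of the 8 members most closely over the 14 naive pull-downs were, by Pearson's r of log2 CPM (1 added), Pls1 (0.998), Cdh12 (0.993), Cables2 (0.993), Pmfbp1 (0.992), Irx3 (0.992), Septin4 (0.991), Crhr1 (0.991), Extl2 (0.990), Bpifb1 (0.989) and Dnaja3 (0.989). The 14 points share lines, and this order is a description with no test. Without the 3 Runx3 libraries r stayed between 0.94 and 1.00 over the remaining 11. The 10 genes were picked with those 11 included, and each had its lowest group mean in Dhh pull-downs. This range is therefore no separate support for their following the members. Pls1, which encodes the actin-bundling protein plastin 1, averaged 127 CPM in Runx3 pull-downs, 26.3 in Isl1 pull-downs, 20.7 in Adv pull-downs, 19.9 in PGK pull-downs and 6.17 in Dhh pull-downs. Irx3, a homeobox transcription factor gene, averaged 13.9 CPM in Runx3 pull-downs, 2.33 in Isl1 pull-downs, 1.73 in Adv pull-downs, 2.18 in PGK pull-downs and 0.15 in Dhh pull-downs. Crhr1, the gene of a corticotropin-releasing hormone receptor, averaged 8.08 CPM in Runx3 pull-downs and 2.41 in Isl1 pull-downs.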

How the data were processed

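Counts per gene were analysed for 76 libraries of mouse dorsal root ganglia in 27 groups, taken with their replicate numbers from the labels of 77 samples; replicate 2 of the naive Dhh IP was not analysed here. All 76 count columns matched 1 sample each. By its methods the study depleted ribosomal RNA, sequenced paired ends, aligned with STAR to mm10 and counted RefSeq genes by HTSeq; CASAVA 1.8.2, edgeR and the builds mm9 and mm10 stand in the submitters' processing notes. No source used here says whether strand was used in counting, and overlapping or antisense genes are uncertain for that reason. Only the raw counts were taken from the 6 tables the authors deposited, not the normalized columns next to them.

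Tests used edgeR 4.0.16 in R 4.3.3: TMM scaling, all groups of a table in 1 quasi-likelihood fit, genes at a mean FPKM above 1 (counts and transcript lengths of GENCODE M21), and Benjamini-Hochberg adjusted p under 0.1 over all genes tested. IP and input, and supernatant and input, were fitted jointly over shared genes. SEs were taken as the size of the log2 change over the root of its F statistic. CPM use the total of listed counts. Within groups, no pair of 71 was near-identical (chi-square per gene 5.5 or more). Alternatives were library totals, DESeq2 size factors, DESeq2 1.42.0, no filter, only the compared groups, the replicate number as a block and each replicate left out; 2 were chosen after seeing the data, leaving out the second pull-downs of the Adv, PGK and Runx3 lines, and taking out a trend with transcript length. The scripts were tested on simulated data.

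The replicate numbers were taken to pair samples where the deviations from group means correlated above 0.1 in every pair of at least 3. This held for IP with input in the naive Isl1 line (0.39 to 0.79), the PGK line (0.26 to 0.85) and the Isl1 course (0.22 to 0.71), and for the Runx3 IP with the Adv IP (0.16 to 0.74) and the PGK IP (0.41 to 0.86) and their inputs in Runx3 and Adv (0.53 to 0.86), not elsewhere.

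The 8 genes and the lists were chosen with earlier results of these data known. Genes named are the 8 members, the driver and tag genes, up to 3 genes per list with the smallest p in Runx3 pull-downs against the Isl1 IP, and the 10 genes most correlated with the members, leaving out predicted genes. Kit was among the named mast cell genes by this rule. Upstream sequences are from RefSeq (GRCm38.p6).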

Additional observations from a re-analysis of the deposited data

How the results depend on the processing

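Over the 26 comparisons, the count of members called was recomputed 357 times; 327 counts stayed within 1.5 times the count given and 30 did not, and 0 of 827 recomputed values of the 61 called member results changed sign (31 fell short of the threshold). The 5 comparisons of the Runx3 IP gave 8 members in all 69 alternatives. The other counts moved as follows. In the Isl1 IP against its input (2 members), library totals and the fit of the compared groups alone gave 0, the length trend 1, the replicate block 3, and leaving out 1 replicate 0 to 2. In the Adv IP against its input (2), library totals and the compared groups alone gave 1, the replicate block 4 (adding Whrn at 0.56 ± 0.14, adjusted p of 0.00427, and Etv1 at 0.36 ± 0.14, adjusted p of 0.0478), and leaving out 1 replicate 0 to 3. In the PGK IP against its input (0), the replicate block gave 3, leaving out the second pull-downs 2, and leaving out 1 replicate 0 to 1. In the Runx3 supernatant against its input (0), the replicate block gave 3 (Pvalb at an adjusted p of 0.0438, Spp1 at 0.0603 and Esrrb at 0.092). In the Dhh IP against its input (6), the replicate block and 1 left-out library gave 7, by adding Whrn, and the compared groups alone 4, since Esrrb and Nxph1 did not pass the filter there. In the Isl1 IP at 24 h (2), the compared groups alone gave 1 and leaving out 1 replicate 1 to 3. In the Isl1 input at 24 h (0), library totals, DESeq2 and the length trend gave 1 each (Etv1) and leaving out 1 replicate 0 to 1 (Spp1). For Etv1 in the Dhh IP at 12 h (0), library totals and the length trend gave 1 and leaving out 1 replicate 0 to 1. The replicate block changed no other count of members. Beyond these results the cause of a change was not tested. Counts over all genes moved by more than 1.5 times mainly in the PGK line, where the block gave 3676 genes and the compared groups alone 385 against 1942, in the Runx3 supernatant, where the block gave 729 against 1, and in the injury courses, where the compared groups alone gave 1425 at 4 h, 1852 at 12 h and 1335 at 24 h in Isl1 pull-downs against 354, 581 and 2098. Of the naive Dhh IP there were 2 libraries, which limits every value set against it.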
